A study of Homo sapiens with 6 samples.

Results

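The genes of the proteasome were examined in H2452 cells, a human pleural mesothelioma line, with and without a guide RNA against NF2. Members were all protein-coding genes of the count table whose symbol begins with PSM, a letter from A to G and a number. The letters matched 49 of the 58735 genes in the table, of which 19951 are protein-coding. PSMC3IP, whose product acts in meiotic recombination, shares the letters only, so 48 proteasome genes remained. They comprised 16 genes of the catalytic core, the 3 immunoproteasome genes PSMB8, PSMB9 and PSMB10, 17 genes of the regulatory particle, and 12 genes of activators, an inhibitor and assembly chaperones. A filter on low counts left 46 of the 48 among the 14179 genes tested. PSMA8, a testis form of an alpha subunit, had 0 counts in all 6 libraries, which allows at most 0.172 to 0.203 CPM (counts scaled to a fixed library size) depending on the library. PSMB11, the thymus form of a catalytic subunit, had no counts in sgCtrl, and 0, 1 and 1 counts in sgNF2-1.

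The proteasome degrades proteins that have been tagged with ubiquitin. Its catalytic core is a barrel of stacked rings, in which outer alpha rings form the gate and inner beta rings carry the proteolytic sites, and a regulatory particle with a base of ATPases and a lid recognises, unfolds and feeds in the substrate. Dedicated chaperones assemble the rings and the base, alternative caps can replace the regulatory particle, and interferon-induced beta subunits can replace the constitutive catalytic ones to form the immunoproteasome, which supplies peptides for class I antigen presentation. NF2 encodes merlin, a tumour suppressor upstream of the Hippo pathway that is frequently lost in mesothelioma.

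The data were RNA-seq counts from 3 libraries of cells with a scrambled control guide (sgCtrl) and 3 libraries of cells with the NF2 guide sgNF2-1. All 6 carried Cas9, which was delivered with its guide and mCherry by lentivirus, and cells were sorted for mCherry, so each group was a sorted population of the same tumour line with a single guide. The methods call the replicates of the study biological in general, without saying how the cultures behind these libraries were kept apart, so p-values measure the spread between these libraries. Libraries held 14782423 to 17416463 counts. NF2 fell from 71.4 ± 3.36 to 44.2 ± 6.77 CPM (mean ± SD, n = 3 per group here and throughout), a log2 fold change of -0.69, with no overlap between groups. All 9 mesothelial markers passed the filter, at means in sgCtrl of 1961 CPM for KRT8, 797 for KRT18, 566 for KRT19, 236 for KRT7, 67.9 for PDPN, 36.4 for MSLN, 10.0 for WT1, 4.33 for CALB2 and 2.32 for UPK3B. KRT7, MSLN and KRT18 were higher in sgNF2-1 (log2 fold changes 1.20, 0.66 and 0.28), and PDPN, WT1 and KRT19 were lower (-1.28, -1.04 and -0.94). Of the leukocyte markers, PTPRC and MS4A1 had 0 counts in all 6 libraries, LYZ and CD3E had 3 and 2 counts in 1 library each, and CD68 had 5, 4 and 4 counts in sgCtrl and 1, 1 and 1 in sgNF2-1.

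The comparison asked how the transcripts of the proteasome differed after NF2 targeting. Of the 12 genes of activators, an inhibitor and assembly chaperones, 5 rose and 1 fell by edgeR's quasi-likelihood test. Thus 50% of this group passed the test, against 34.3% of all genes tested. The 5 became 2 by limma on FPKM. The group holds the core assembly chaperones PSMG1, PSMG2, PSMG3 and PSMG4. These chaperones rose in 4 of 4 cases, by 0.23 to 0.50 on the log2 scale (edgeR's test). Of all genes tested 17.7% were higher, and the count of 4 became 3 by DESeq2, 1 by limma on FPKM, and 2 without sgCtrl replicate 2, sgNF2-1 replicate 2 or sgNF2-1 replicate 3. None of the 7 tested alpha subunits whose ring they build passed the test. The nuclear activator PSME3 rose by 0.39, and the base chaperone PSMD10 fell by 0.42. Of the core, PSMB2 fell, and of the regulatory particle PSMD3 and PSMD8 rose while PSMD1 and PSMC2 fell. No immunoproteasome gene passed the test.

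By edgeR's quasi-likelihood test at a Benjamini-Hochberg adjusted p under 0.05 over all genes tested, 7 of the 46 members were higher and 4 lower in sgNF2-1. Among all genes tested 17.7% were higher and 16.6% lower, so the members were called at 23.9% against 34.3% for all genes. Their differences were small, with a median absolute log2 fold change of 0.136 against 0.265 over all genes and a largest value of 0.50. Members were not matched to other genes by expression level, so these values do not show that they were more stable. The median log2 fold change was 0.001 for the members and -0.003 for all genes, with 23 members above 0 and 23 below. Under the rule of an unadjusted p under 0.05 with a log2 fold change beyond 0.5, which called 9.22% of all genes higher and 10.8% lower, 1 member (PSMG4) was higher and 0 were lower. The groups did not overlap for 7 members that were higher and 5 that were lower in sgNF2-1, against 23.2% and 22.2% of all genes. The number of members higher dropped from 7 to 4 without sgCtrl replicate 2 or without sgNF2-1 replicate 3.

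**Figure D1:**
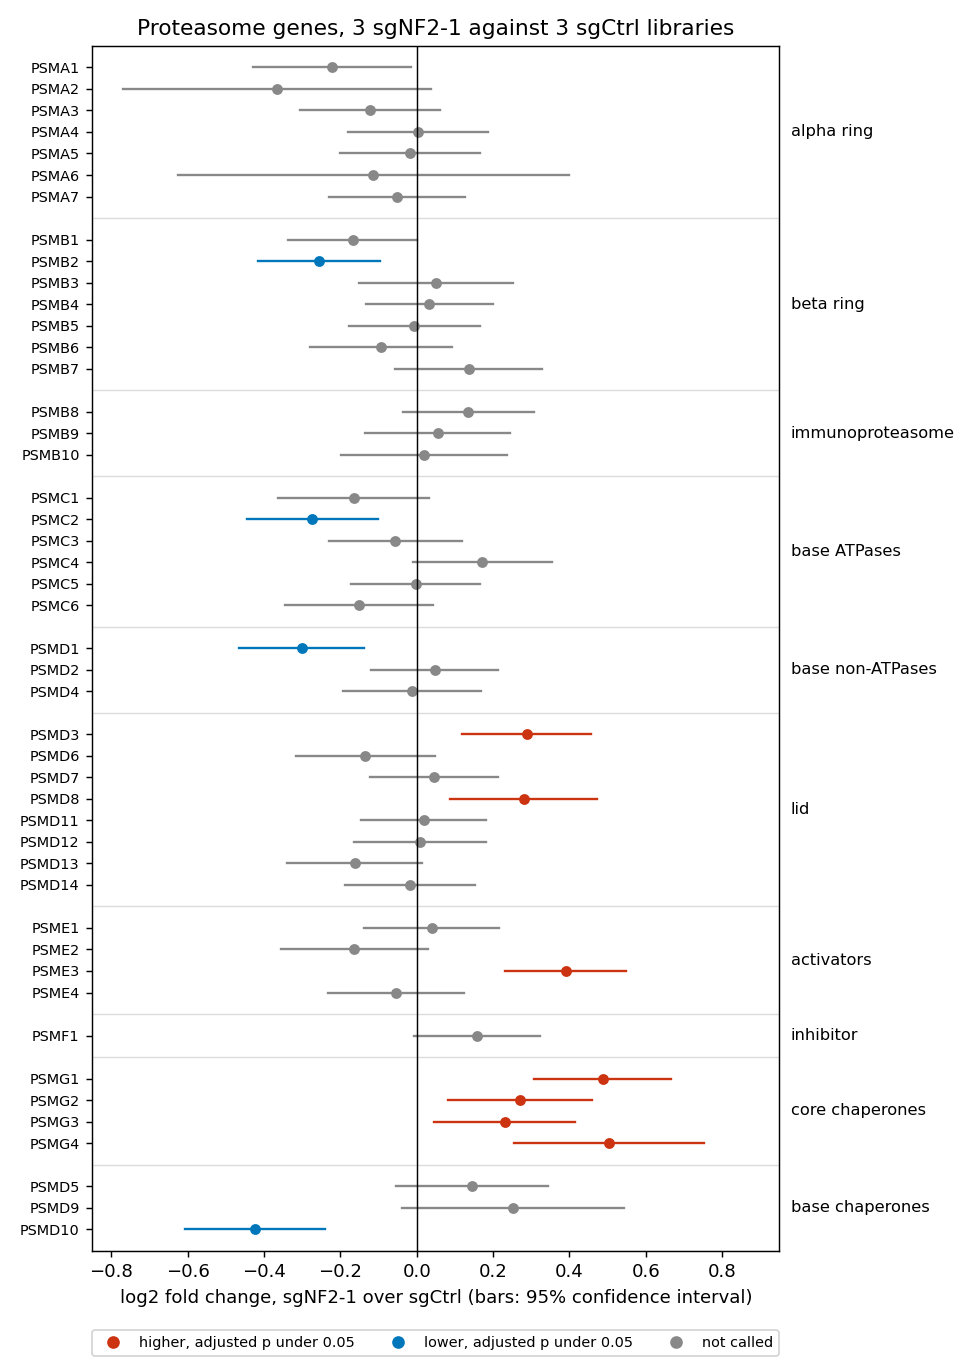
Log2 fold change (x axis, sgNF2-1 over sgCtrl) of the 46 tested proteasome genes, grouped by role, where points are edgeR estimates from 3 against 3 libraries and bars their 95% confidence intervals. The 4 core chaperones all lie to the right of 0, while 10 of 14 core subunits lie to the left.

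Summed over all its genes, the proteasome differed between groups by less than the spread between libraries. The 48 genes added up to 7071, 6913 and 7575 CPM in the sgCtrl libraries and to 7043, 6960 and 7776 CPM in the sgNF2-1 libraries, so that the sgNF2-1 mean was 101% of the sgCtrl mean. Replicate 3 was the highest library of both groups, and the groups overlapped. By group of genes, the sum reached 97.4% of sgCtrl for the core, 99.8% for the regulatory particle, 107% for the immunoproteasome genes and 109% for the activators. The core chaperones stood at 245.7, 229.7 and 255.8 CPM in sgCtrl and at 290.2, 299.0 and 329.8 CPM in sgNF2-1, or 126% of the sgCtrl mean, without overlap. These sums are descriptions and were not tested.

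**Figure D2:**
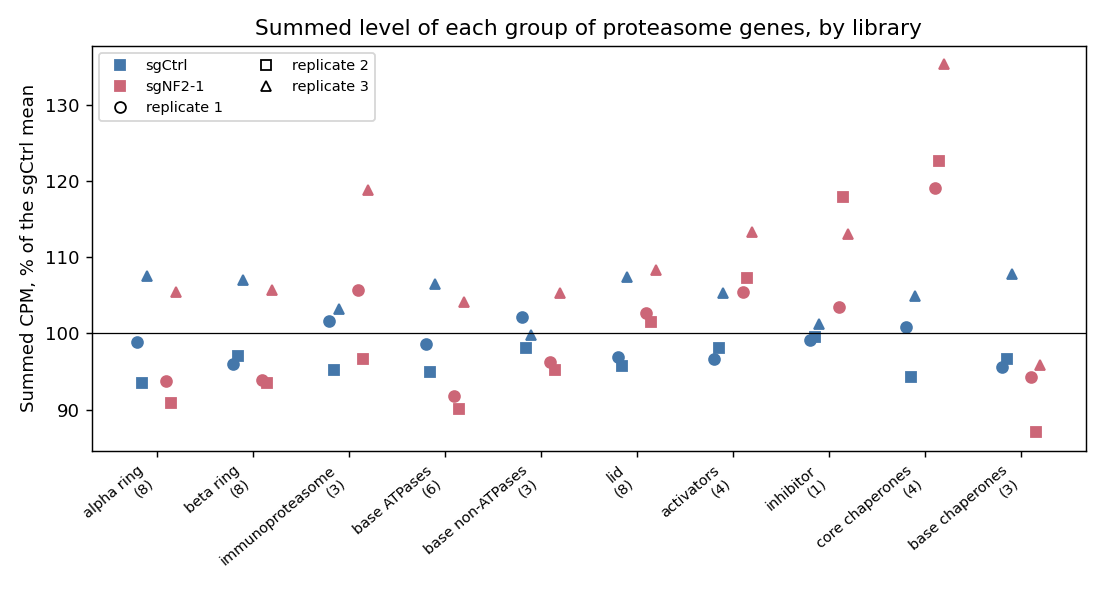
Summed CPM of each group of proteasome genes (x axis, number of genes in brackets) in each of the 6 libraries, as a percentage of that group's sgCtrl mean (y axis, which does not start at 0), with symbols marking the replicate number. All 3 sgNF2-1 libraries lie above all 3 sgCtrl libraries for the activators, the inhibitor and the core chaperones, at 109%, 112% and 126% of the sgCtrl mean. For the activators the gap is narrow, from 575.5 CPM in sgCtrl replicate 3 to 576.7 CPM in sgNF2-1 replicate 1. Only PSME3 of the activators was called, and PSME2 and PSME4 had estimates below 0.

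Of the 7 tested alpha subunits, which form the gated outer rings, 0 passed edgeR's test and 1, PSMA1, had an unadjusted p under 0.05, while 6 of the 7 estimates were below 0. PSMA1 stood at 47.7 ± 5.08 CPM in sgCtrl and 40.9 ± 2.50 CPM in sgNF2-1 (log2 fold change -0.22, adjusted p = 0.092). PSMA4 and PSMA5 differed least, with log2 fold changes of 0.00 and -0.02 and 95% intervals from -0.18 to 0.19 and from -0.20 to 0.16.

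In the beta rings 1 of 7 tested subunits was called (14.3%, against 34.3% of all genes). PSMB2, a structural beta subunit without a proteolytic site (ENSG00000126067, chromosome 1, 35599544 to 35641844, minus strand, hg38), stood at 271, 273 and 273 CPM in sgCtrl and at 219, 236 and 229 CPM in sgNF2-1. All 3 sgNF2-1 libraries lay below all sgCtrl libraries, whose values barely differed. PSMB2 fell by 0.26 on the log2 scale (SE 0.078, edgeR adjusted p = 0.012). Without sgNF2-1 replicate 1 its adjusted p was 0.076, and without sgNF2-1 replicate 3 the core had 2 genes lower in place of 1. PSMB1, another structural beta subunit, was at 322 ± 15 and 286 ± 19.4 CPM without overlap between groups, but did not pass the test (log2 fold change -0.17, adjusted p = 0.11). PSMB3 and PSMB4 had log2 fold changes of 0.05 and 0.03.

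Subunits that occur in equal number in the particle differed widely in their deposited FPKM (fragments scaled to gene length and library size), from 210 ± 14.5 for PSMA7 to 1.34 ± 0.27 for PSMA2 and 0.50 ± 0.053 for PSMA6 in sgCtrl. In GENCODE 29, 85.6% of the 50-base stretches of the main PSMA6 transcript occur also in another gene, among them AL121594.1, which runs through PSMA6 on the same strand, and 3 pseudogenes. The value was 51.0% for PSMA2, 48.4% for PSMA1 and 97.5% for PSMC1, and 0 for PSMA3, PSMA4, PSMA5 and PSMA7. Of the PSMC1 exon bases, 75.8% overlap NRDE2 on the opposite strand. Sharing and level did not always go together. PSMD7, with 46.9% shared, stood at 49.8 CPM per kilobase of the main transcript in sgCtrl, and PSMD12, with 1.8%, at 18.2. The read-through genes held few counts themselves, at most 8 in any library for AL121594.1, 2 for AC010132.3 over PSMA2 and 0 for AC018523.2 over PSMA1. How reads shared by several genes were counted is not given in the sources used here, and the part of such reads in the low levels was not tested. PSMA2 and PSMA6 had the widest intervals of all members, with log2 fold changes from -0.77 to 0.04 and from -0.63 to 0.40.

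**Figure D3:**
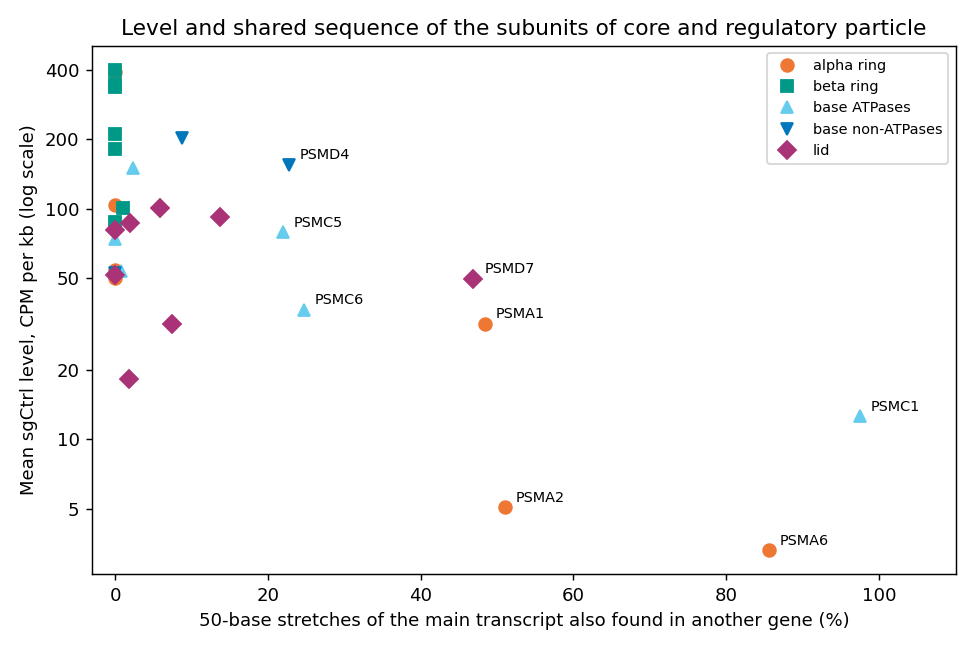
Share of 50-base stretches of the main transcript that occur in another gene (x axis, percent) against the mean sgCtrl level in CPM per kilobase of that transcript (y axis, log scale) for the subunits of the core without the immunoproteasome genes and of the regulatory particle, with names for the most shared. PSMA2, PSMA6 and PSMC1, with 51.0% or more shared, have the lowest levels of the genes drawn, at 5.08, 3.31 and 12.6 CPM per kilobase (PSMA8 and PSMB11, at 0 in sgCtrl, are not drawn).

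The 3 catalytic subunits of the constitutive proteasome did not pass the test. PSMB5, which carries the chymotrypsin-like site, was at 114, 112 and 116 CPM in sgCtrl and at 108, 108 and 125 CPM in sgNF2-1 (log2 fold change -0.01, 95% interval -0.18 to 0.17). PSMB6, which carries the caspase-like site, was at 180, 173 and 187 CPM in sgCtrl and at 154, 156 and 195 CPM in sgNF2-1, where replicate 3 lay above and the others below all sgCtrl libraries (log2 fold change -0.09, interval -0.28 to 0.09). PSMB7, which carries the trypsin-like site, was at 345, 379 and 451 CPM in sgCtrl and at 416, 409 and 467 CPM in sgNF2-1. Its groups overlapped through sgCtrl replicate 3 (log2 fold change 0.14, adjusted p = 0.27), and without that library it passed the test at an adjusted p of 0.030.

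The immunoproteasome subunits were all expressed without added interferon, and 0 of 3 passed the test by edgeR, by DESeq2 or at an unadjusted p under 0.05. PSMB8, the induced counterpart of PSMB5, was at 266, 244 and 266 CPM in sgCtrl and at 283, 261 and 308 CPM in sgNF2-1 (log2 fold change 0.13, interval -0.04 to 0.31). PSMB9, the counterpart of PSMB6, was at 167, 160 and 170 CPM in sgCtrl and at 166, 150 and 200 CPM in sgNF2-1 (log2 fold change 0.05, interval -0.13 to 0.24). PSMB10, the counterpart of PSMB7, was at 33.0, 31.3 and 37.0 CPM in sgCtrl and at 35.3, 31.5 and 35.7 CPM in sgNF2-1 (log2 fold change 0.02, interval -0.20 to 0.24). For all 3 the groups overlapped, and sgNF2-1 replicate 3 was the highest sgNF2-1 library. The intervals reach up to 0.31 on the log2 scale, so an absence of change was not shown. Exons of PSMB8 overlap those of PSMB8-AS1 and PSMB9 on the opposite strand over 20.6% of their length, and 34.8% of the exon bases of PSMB10 also belong to AC040162.1, whose counts were 9 to 24 per library.

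Per length, the pairs differed in which form was more abundant. In sgCtrl the deposited FPKM was 81.8 ± 3.80 for PSMB8 and 61.3 ± 1.22 for PSMB5, 51.1 ± 1.36 for PSMB9 and 118 ± 4.42 for PSMB6, and 17.3 ± 1.47 for PSMB10 and 208 ± 28.6 for PSMB7. The FPKM ratio of the induced to the constitutive form was thus 1.33 ± 0.041, 0.435 ± 0.0057 and 0.0836 ± 0.0076. With levels per kilobase of the main transcript instead, an alternative chosen after seeing the data, the ratios were 2.61, 1.00 and 0.0698, so the order of the pairs held but the size depended on the gene length used.

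The ratio of induced to constitutive counts was also compared within libraries, which needs no scaling between them. The ratio of PSMB8 to PSMB5 counts was 2.33, 2.19 and 2.28 in sgCtrl and 2.61, 2.42 and 2.48 in sgNF2-1, without overlap. The log2 ratio was higher by 0.14 (SE 0.041), with a two-sided exact permutation p of 0.10, the smallest that 3 against 3 libraries allow, and 0.15 after adjustment over the 3 ratios. The ratio of PSMB9 to PSMB6 was 0.929, 0.930 and 0.909 in sgCtrl and 1.08, 0.960 and 1.03 in sgNF2-1, also without overlap (difference 0.15, SE 0.050, exact permutation p = 0.10, adjusted 0.15). For PSMB10 to PSMB7 the groups overlapped (difference -0.12, SE 0.088, exact permutation p = 0.30).

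**Figure D4:**
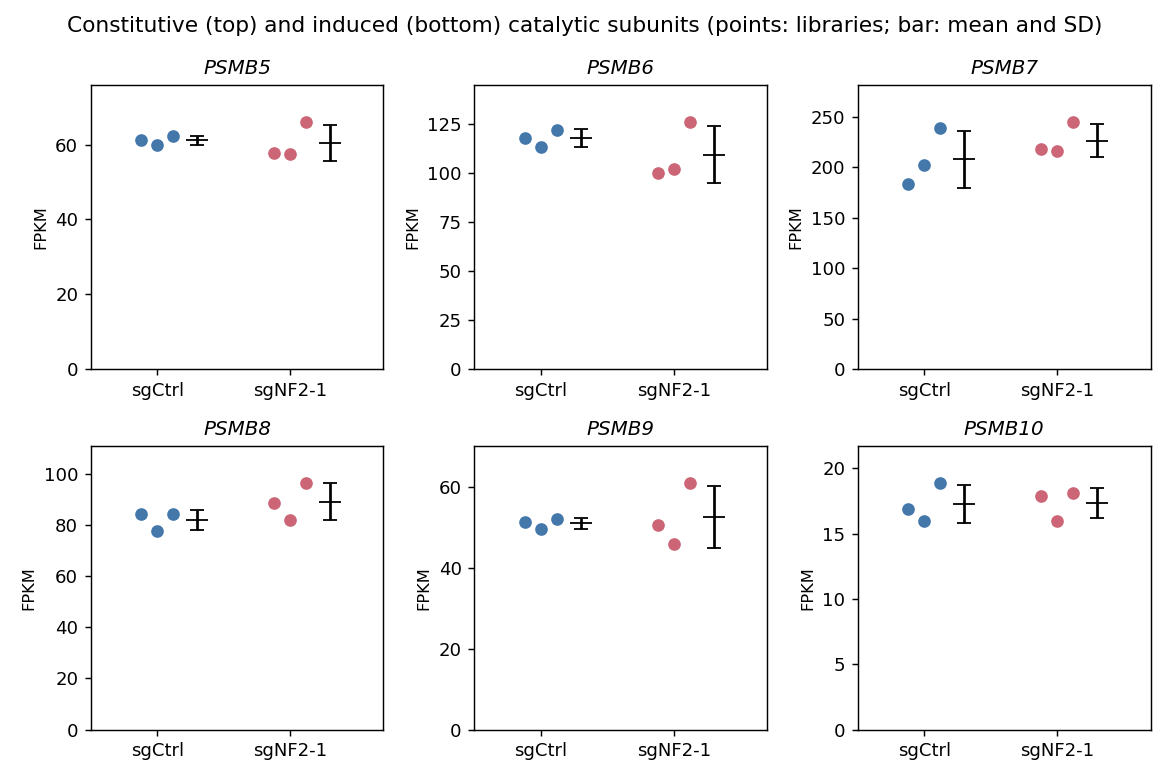
Deposited FPKM (y axis from 0) of the constitutive catalytic subunits PSMB5, PSMB6 and PSMB7 (top) and of the induced PSMB8, PSMB9 and PSMB10 (bottom) in the 3 sgCtrl and 3 sgNF2-1 libraries, with points for libraries and bars for mean and SD. Groups overlap in all 6 panels, and PSMB10 lies at 16.0 to 18.9 FPKM while PSMB7 lies at 183 or more.

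In the regulatory particle 4 of 17 genes were called, 2 in each direction. These 23.5% stood below the 34.3% of all genes tested, where 17.7% were higher and 16.6% lower. PSMD1 (ENSG00000173692, chromosome 2, 231056864 to 231172827, plus strand), the large scaffold of the base, was at 173, 172 and 183 CPM in sgCtrl and at 145, 135 and 148 CPM in sgNF2-1. It fell by 0.30 on the log2 scale (SE 0.080, adjusted p = 0.0045), without overlap. PSMC2 (ENSG00000161057, chromosome 7, 103344254 to 103369395, plus strand), an ATPase of the base, was at 164, 154 and 173 CPM in sgCtrl and at 135, 127 and 144 CPM in sgNF2-1, again without overlap. It fell by 0.27 (SE 0.083, adjusted p = 0.012), and without sgNF2-1 replicate 2 the adjusted p was 0.096. Of the other 5 ATPases 4 had estimates below 0, and PSMC4 was at 117 ± 9.17 and 132 ± 13.1 CPM (log2 fold change 0.17, adjusted p = 0.14).

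Both members called higher belong to the lid, which removes ubiquitin chains. PSMD3 (ENSG00000108344, chromosome 17, 39980797 to 39997960, plus strand), a structural lid subunit, was at 166, 171 and 188 CPM in sgCtrl and at 206, 207 and 228 CPM in sgNF2-1, without overlap. It rose by 0.29 (SE 0.082, adjusted p = 0.0081). PSMD8 (ENSG00000099341, chromosome 19, 38374536 to 38383824, plus strand), another structural lid subunit, was at 117, 133 and 153 CPM in sgCtrl and at 165, 149 and 176 CPM in sgNF2-1, where the groups overlapped through sgCtrl replicate 3. It rose by 0.28 (SE 0.094, adjusted p = 0.022), but the adjusted p was 0.064 to 0.15 without sgCtrl replicate 1, sgCtrl replicate 2, sgNF2-1 replicate 1 or sgNF2-1 replicate 3. PSMD14, the deubiquitinase of the lid, was at 197 ± 15.9 and 195 ± 9.52 CPM (log2 fold change -0.02). The ubiquitin receptors of the base PSMD2 and PSMD4 had log2 fold changes of 0.05 and -0.01.

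Of the 4 genes of alternative caps 1 was called (25%, against 34.3% of all genes). PSME3, which encodes the nuclear cap PA28 gamma (ENSG00000131467, chromosome 17, 42824385 to 42843758, plus strand), was at 177, 181 and 183 CPM in sgCtrl and at 234, 243 and 231 CPM in sgNF2-1. All sgNF2-1 libraries lay above the highest sgCtrl library. PSME3 rose by 0.39 (SE 0.077, adjusted p = 0.00032), or 1.31-fold, and passed the test in all 16 alternative analyses. Its exons overlap those of BECN1 on the opposite strand over 5.8% of their length. PSME1 and PSME2, whose products form the interferon-inducible cap, were at 188 ± 11.5 and 193 ± 18.9 CPM and at 102 ± 8.07 and 91.1 ± 11.3 CPM, with log2 fold changes of 0.04 and -0.16. PSME4, another nuclear cap, had a log2 fold change of -0.05. The inhibitor PSMF1 was at 158, 159 and 162 CPM in sgCtrl and 165, 188 and 181 CPM in sgNF2-1, which do not overlap, and did not pass the test (log2 fold change 0.16, adjusted p = 0.14).

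The core chaperones form a pair of heterodimers on which the alpha ring is built. PSMG1 (ENSG00000183527, chromosome 21, 39174769 to 39183851, minus strand) was at 47.3, 48.7 and 50.2 CPM in sgCtrl and at 68.4, 66.4 and 70.2 CPM in sgNF2-1. It rose 1.40-fold, a log2 fold change of 0.49 (SE 0.087, adjusted p = 0.00010), without overlap and in all 16 alternative analyses. Its partner PSMG2 (ENSG00000128789, chromosome 18, 12658043 to 12725740, plus strand) was at 80.5, 78.6 and 96.3 CPM in sgCtrl and at 95.1, 106 and 107 CPM in sgNF2-1. It rose by 0.27 (SE 0.091, adjusted p = 0.023), although sgCtrl replicate 3 lay above the lowest sgNF2-1 library.

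PSMG4 (ENSG00000180822, chromosome 6, 3231403 to 3303373, plus strand) was at 26.6, 24.1 and 27.2 CPM in sgCtrl and at 34.8, 31.3 and 44.6 CPM in sgNF2-1. It rose 1.42-fold, a log2 fold change of 0.50 (SE 0.12, adjusted p = 0.0020), without overlap. Its partner PSMG3 (ENSG00000157778, chromosome 7, 1567330 to 1571005, minus strand) was at 91.3, 78.2 and 82.0 CPM in sgCtrl and at 91.8, 95.2 and 108 CPM in sgNF2-1. The highest sgCtrl and lowest sgNF2-1 library nearly touched, and PSMG3 rose by 0.23 (SE 0.090) with an adjusted p of 0.048, close to the threshold. PSMG2 and PSMG3 were given library by library after their values had been seen. The count of core chaperones higher went from 4 to 2 without sgCtrl replicate 2, sgNF2-1 replicate 2 or sgNF2-1 replicate 3. PSMG1 and PSMG4 passed the test without any of the 6 libraries. PSMG2 had an adjusted p of 0.096, 0.13, 0.084 and 0.061 without sgCtrl replicate 1, sgCtrl replicate 2, sgNF2-1 replicate 2 and sgNF2-1 replicate 3. PSMG3 had 0.21, 0.092, 0.069 and 0.18 without sgCtrl replicate 2, sgCtrl replicate 3, sgNF2-1 replicate 2 and sgNF2-1 replicate 3, and 0.061 by DESeq2.

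Neighbouring genes were measured beside 3 of the chaperones, since the strand setting of the counting is not given in the sources used here. SPIRE1, which shares exon bases with PSMG2 on the opposite strand, had 692, 771 and 638 counts in sgCtrl and 1690, 1366 and 1098 in sgNF2-1, while CEP76 on that strand had 139, 122 and 160 against 178, 125 and 84 counts. Shared bases make up 16.7% of the PSMG2 exons, and the part of SPIRE1 in the PSMG2 result was not tested. SLC22A23, opposite PSMG4 over part of the 15% of its exon bases shared with other genes, had 583, 629 and 581 against 561, 503 and 467 counts. TUBB2B, also opposite PSMG4, had 14, 23 and 7 against 13, 16 and 10 counts. The PSMG4 gene model holds 10418 exon bases and its main transcript 838 bases. The part of shared bases in the PSMG4 result was not tested. PSMG1 shares no exon base with another gene.

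**Figure D5:**
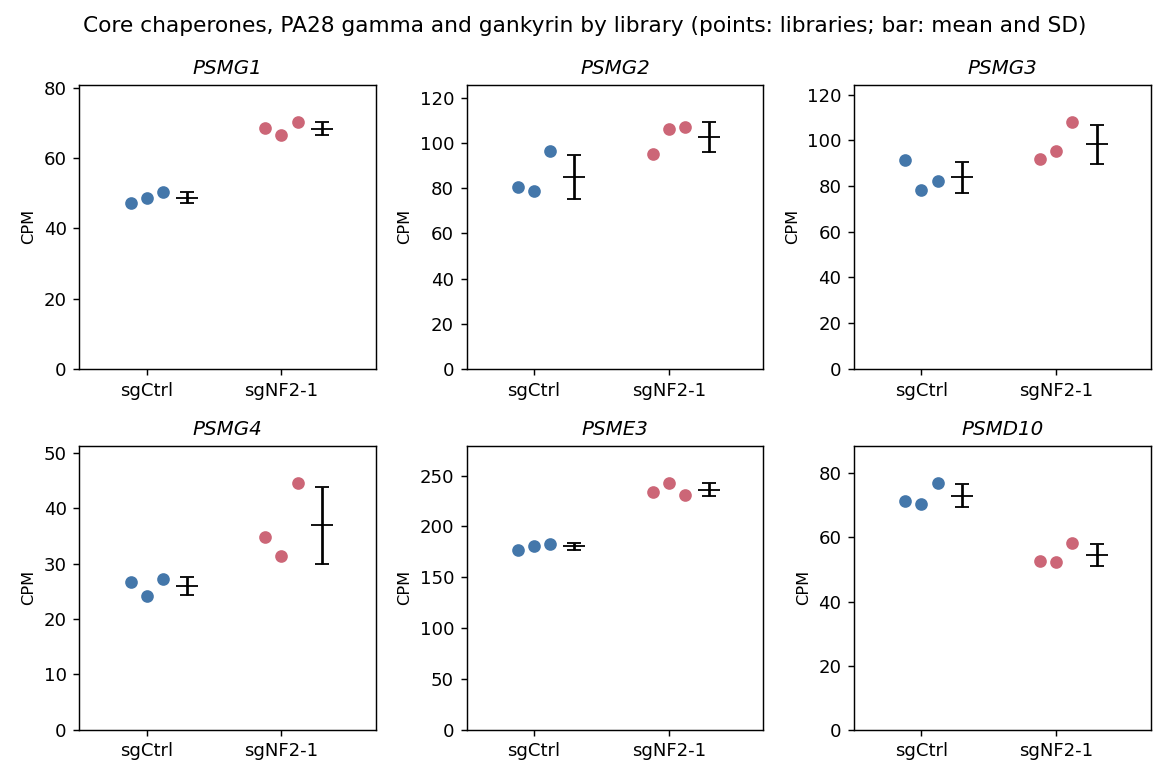
CPM (y axis from 0, scaled to each gene) of the core chaperones PSMG1 to PSMG4, of PSME3 (PA28 gamma) and of PSMD10 (gankyrin) in the 3 sgCtrl and 3 sgNF2-1 libraries, with points for libraries and bars for mean and SD. The groups are apart for all genes shown except PSMG2, where sgCtrl replicate 3 at 96.3 CPM lies above sgNF2-1 replicate 1 at 95.1 CPM.

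Since the core chaperones rose together, the bases in front of their genes are shown for the 3 with a RefSeq promoter window in the table used. Each run holds the 250 bases upstream of the RefSeq start (GRCh38.p14), written 5′ to 3′ on the gene's strand, with matches to the searched motifs in capitals. All 3 windows lie inside the gene models of the count table, which begin further upstream. The PSMG1 window is chr21:39183452-39183701 (minus strand), that of PSMG2 chr18:12658488-12658737 (plus strand) and that of PSMG4 chr6:3258697-3258946 (plus strand). The capitals mark, in order, CCAAT and TGACAGCGC in PSMG1, TGACCCCGC in PSMG2, and CTTCCGG (the reverse complement of CCGGAAG) and GAAAGCGAA in PSMG4.
PSMG1: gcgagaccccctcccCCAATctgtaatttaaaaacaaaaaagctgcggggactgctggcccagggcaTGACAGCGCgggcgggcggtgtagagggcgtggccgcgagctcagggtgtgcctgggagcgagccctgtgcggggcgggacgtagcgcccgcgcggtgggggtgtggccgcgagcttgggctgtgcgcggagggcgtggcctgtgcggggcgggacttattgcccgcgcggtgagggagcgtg
PSMG2: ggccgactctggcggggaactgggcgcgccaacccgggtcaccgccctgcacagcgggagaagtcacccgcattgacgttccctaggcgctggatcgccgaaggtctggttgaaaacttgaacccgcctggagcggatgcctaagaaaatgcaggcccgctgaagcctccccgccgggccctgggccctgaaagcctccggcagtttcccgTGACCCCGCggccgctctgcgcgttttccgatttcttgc
PSMG4: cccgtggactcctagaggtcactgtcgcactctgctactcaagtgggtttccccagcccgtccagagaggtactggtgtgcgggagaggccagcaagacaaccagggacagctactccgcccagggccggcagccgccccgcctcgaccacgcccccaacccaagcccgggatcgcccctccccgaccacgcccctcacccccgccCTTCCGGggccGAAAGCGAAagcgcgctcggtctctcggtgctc

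The 8 motifs were searched on both strands in the windows of 42 members and in all 35116 windows of the table. The members had 51 windows in all, and a single window was kept per member. All windows were kept for the other share, so the percentages compared come from unlike sets. The antioxidant response element core TGACNNNGC, to which NFE2L1 and NFE2L2 with small MAF proteins bind, was in 11 of the 42 member windows (26.2%) and in 10.9% of all windows. The members were PSMB3, PSMB9, PSMD3, PSMD5, PSMD9, PSMD12, PSME1, PSME2, PSME4, PSMG1 and PSMG2. Only PSMD3, PSMG1 and PSMG2 of these were called by edgeR, and the others were not. The CCAAT box was in 18 (42.9%) against 32.0%, and the ETS core CCGGAAG in 10 (23.8%) against 8.52%. Members with the ETS core were PSMA8, PSMC2, PSMC6, PSMD6, PSMD8, PSMD9, PSMD12, PSMD13, PSME4 and PSMG4. Among them PSMD8 and PSMG4 were called higher and PSMC2 lower, and the others were not called. The interferon response core GAAANNGAA was in 5 (11.9%) against 6.88%, including PSMB10, PSME2 and PSMG4, the GAS element TTCNNNGAA in 5 against 6.57%, and the nuclear respiratory factor core GCGCNTGCG in 5 against 6.54%. The E-box CACGTG and the TEAD core GGAATG were each in 3 windows (7.14%), against 6.34% and 11.9%. The members' windows had a median GC content of 61.6% and all windows of 58.0%. A match says only that the letters are present.

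Of the 3 base chaperones, which assemble the ATPase ring, PSMD10 (gankyrin, ENSG00000101843, chromosome X, 108084207 to 108091618, minus strand) was at 71.5, 70.4 and 77.1 CPM in sgCtrl and at 52.7, 52.2 and 58.4 CPM in sgNF2-1. It fell to 0.746 of its sgCtrl level, a log2 fold change of -0.42 (SE 0.089, adjusted p = 0.00059), without overlap and in all 16 alternative analyses. PSMD5 and PSMD9 had estimates of the opposite sign, 0.14 and 0.25, and did not pass the test (adjusted p = 0.26 and 0.18). The base chaperones summed to 92.4% of their sgCtrl level.

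Other genes that work with the proteasome were described from lists of known partners and regulators. Of 16 partners 3 were higher and 1 lower, with a median log2 fold change of 0.06 against -0.003 for all genes. The 25% called stood below the 34.3% of all genes, of which 17.7% were higher. ADRM1, a ubiquitin receptor of the regulatory particle, rose from 138 ± 11.8 to 169 ± 21.9 CPM (log2 fold change 0.29, adjusted p = 0.017). ECPAS, an adaptor that binds the assembled particle, rose from 177 ± 7.43 to 213 ± 13.5 CPM (0.27, adjusted p = 0.012), and UBQLN4, a shuttle for ubiquitinated proteins, from 53.7 ± 4.71 to 73.2 ± 2.02 CPM (0.45, adjusted p = 0.00041). SEM1, a small lid subunit outside the PSM naming, fell from 45.6 ± 4.32 to 35.7 ± 4.70 CPM (-0.36, adjusted p = 0.012). POMP, the chaperone that completes the core after the PSMG proteins, was at 232 ± 32.9 and 219 ± 25.2 CPM with overlapping groups (log2 fold change -0.08). UBQLN4 passed the test in all 16 alternative analyses. The adjusted p of ADRM1 was 0.068, 0.083 and 0.11 without sgCtrl replicate 1, sgCtrl replicate 2 and sgNF2-1 replicate 3, that of ECPAS 0.071 and 0.076 without sgCtrl replicate 2 and sgNF2-1 replicate 1, and that of SEM1 0.058, 0.063 and 0.09 without sgCtrl replicate 3, sgNF2-1 replicate 1 and sgNF2-1 replicate 2.

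NFE2L1 encodes a factor that raises proteasome gene transcription when proteasome activity is short. Among 11 genes listed around it, 2 were higher and 0 lower (18.2% called, against 34.3% of all genes, of which 17.7% were higher). The list also holds the separate factor NFE2L2, so these counts do not measure NFE2L1 activity. NFE2L1 itself was at 1599 ± 53.9 and 1680 ± 24.6 CPM (log2 fold change 0.07, adjusted p = 0.55), and its processing enzymes DDI2 and NGLY1 had log2 fold changes of 0.10 and -0.03. MAFF, a small MAF partner of NFE2L1 and NFE2L2, rose from 51.9 ± 4.43 to 90.4 ± 3.89 CPM (0.80, adjusted p = 1.5e-07), and NFE2L2 from 142 ± 10.9 to 177 ± 13.1 CPM (0.31, adjusted p = 0.0055). Of 6 genes that supply or activate ubiquitin, RPS27A, which encodes ubiquitin fused to a ribosomal protein, rose (0.32, adjusted p = 0.013) and UBA6, a ubiquitin-activating enzyme, fell from 98.8 ± 3.30 to 69.6 ± 7.78 CPM (-0.51, adjusted p = 0.00010). Of 8 genes of the p97 segregase, which extracts proteins for degradation, the cofactor UBXN1 rose (0.33, adjusted p = 0.011) and VCP itself had a log2 fold change of -0.14 (adjusted p = 0.18). The adjusted p of RPS27A was 0.065, 0.087 and 0.081 without sgCtrl replicate 1, sgCtrl replicate 2 and sgNF2-1 replicate 3, and that of UBXN1 0.072 and 0.081 without sgCtrl replicate 2 and sgNF2-1 replicate 3. The ubiquitin list was called at 33.3% and the p97 list at 12.5%. Over the 53 genes of these lists and the class I list, 8 were higher and 10 lower (34% called, against 34.3% of all genes). The number higher dropped to 4 without sgCtrl replicate 2 and to 5 without sgNF2-1 replicate 3.

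Genes of class I antigen presentation, which use the peptides the proteasome makes, are given beside the immunoproteasome. Of 12 genes of class I presentation, 8 fell and 1 rose by edgeR's test. This list was called at 75%, against 34.3% for all genes, where 17.7% were higher and 16.6% lower. B2M fell from 8884 ± 927 to 6530 ± 449 CPM (log2 fold change -0.44, adjusted p = 0.0010). ERAP2, which trims the peptides, fell by 0.64 (adjusted p = 1.1e-06). The gene that rose was the interferon regulatory factor IRF1 (0.63, adjusted p = 1.5e-05). TAP1, the peptide transporter gene that lies beside PSMB9, had a log2 fold change of 0.06, and TAP2 of 0.13, neither of which passed the test. The difference between these genes and the immunoproteasome subunits was not tested.

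PSMC3IP, the gene with matching letters outside the proteasome, was at 7.01 ± 0.94 and 6.11 ± 0.58 CPM (log2 fold change -0.20, adjusted p = 0.41).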

How the data were processed

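RNA was taken from H2452 cells with a scrambled guide (sgCtrl, 3 libraries) or the NF2 guide sgNF2-1 (3 libraries), and libraries were made with the NEBNext Ultra RNA kit and sequenced as paired ends by the authors. The submitters' processing notes name HISAT2, StringTie 1.3.3b, featureCounts 1.5.0-p3 and the build hg38. The deposited table gives raw counts per gene, and the authors also deposited FPKM, which divides by their gene lengths. Strand setting and treatment of multiply mapped reads are not given in the sources used here. Columns with gene annotation served for names and positions. No column of another series was present (0).

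Counts were tested with edgeR 4.0.16 in R 4.3.3 (filterByExpr with a minimum count of 10 and total of 15, TMM, quasi-likelihood test, group only), with Benjamini-Hochberg adjustment over the 14179 genes tested, a threshold of 0.05 and, as a second rule, a log2 fold change beyond 0.5. CPM are TMM-scaled. DESeq2 1.42.0 and limma 3.58.1 on log2(FPKM + 1) and log2(FPKM + 0.1), where fold changes of low genes are understated, were alternatives. Intervals are 95%. The members and lists were chosen with earlier results of these data known. By a rule set with the lists, values by library were given for the catalytic subunits and for called members, at most 4 per class by size of change. PSMF1, PSMG2 and PSMG3 were added after their values had been seen. The fit was tested on simulated counts with 200 changed genes. There edgeR recovered 50.5% of the tested genes with a true log2 change of 0.5 and 83.5% of those with a change of 1. It also called 8 of 13745 unchanged genes. Smaller changes, as most members had, were not simulated, so a gene that did not pass the test may still differ. Within groups, the chi-square per degree of freedom between libraries was 5.12 to 12.5, so no library was a copy of another. Exon overlaps and shared stretches of 50 bases came from GENCODE 29, where all 49 matched genes were found, and promoter windows from RefSeq (GRCh38.p14), which matched 42 of 48.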

Additional observations from a re-analysis of the deposited data

How the results depend on the processing

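PSME3, PSMD10, PSMG1 and PSMD1 passed the test in all 16 alternatives, PSMB2 in 15, PSMD3 in 14, PSMC2 and PSMG4 in 13, PSMG2 and PSMD8 in 9 and PSMG3 in 5, and none of these genes changed sign. With limma on log2(FPKM + 1), on log2(FPKM + 0.1) and without a filter, members higher were 3, 2 and 2 in place of 7, those of the activators, inhibitor and chaperones 2, 2 and 2 in place of 5, core chaperones 1, 1 and 1 in place of 4, regulatory particle genes 1, 0 and 0 in place of 2, and genes of the partner and regulator lists 3, 3 and 3 in place of 8. With limma on log2(FPKM + 0.1) and without a filter, lower regulatory particle genes were 1 and 1 in place of 2, and lower genes of the lists 5 and 6 in place of 10. With the limit of 0.5 on the log2 fold change, 1 member was higher and 0 lower, with unadjusted or adjusted p.

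Leaving out each library in turn gave 4 to 8 members higher and 3 to 6 lower, 3 to 5 activator, inhibitor and chaperone genes higher and 1 to 2 lower, 0 to 1 core genes higher and 0 to 2 lower, 1 to 3 regulatory particle genes higher and 1 to 2 lower, 2 to 4 core chaperones higher, and 4 to 8 genes of the lists higher and 7 to 11 lower. The log2 fold changes of genes near 0 changed sign, with ranges of -0.072 to 0.033 for PSMB5, -0.034 to 0.092 for PSMB10 and -0.063 to 0.148 for PSMB9. The cause of these moves was not tested.

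PSMB5 was at 0.009 without the filter and PSMB10 at -0.006 with library totals only, which moved the median of all genes to -0.03. The replicate numbers did not pair the libraries (correlations of deviations -0.038, 0.071 and 0.059). With a replicate block, 7 members were higher and 4 lower, as without it. For the ratios of induced to constitutive subunits the block leaves the difference the same by arithmetic and so says nothing about them. At 14782423 to 17416463 counts per library, the widest intervals were those of PSMA6 and PSMA2, the tested members with the lowest levels (3.40 and 7.56 CPM in sgCtrl).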

Other observations

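The table also held 37 non-coding genes with a proteasome name, pseudogenes and antisense RNAs, of which 17 had at least 1 count. PSMA3-AS1, the antisense RNA of PSMA3, was lower in sgNF2-1, at 12.7 ± 0.53 CPM in sgCtrl and 8.88 ± 1.26 CPM in sgNF2-1 (log2 fold change -0.51, edgeR adjusted p = 0.0094), without overlap, whereas PSMA3 had a log2 fold change of -0.12. It was singled out after its values had been seen. PSMB8-AS1 at 7.34 and 7.66 CPM and PSMG3-AS1 at 11.1 and 11.6 CPM had log2 fold changes of 0.06 each. The pseudogenes with the most counts, PSMC1P1 and PSMA6P1, were at 2.83 and 0.98 CPM in sgCtrl, beside 56.1 CPM for PSMC1 and 3.40 CPM for PSMA6, and sequence shared with their parent genes means that these levels cannot be told apart from reads of the parents.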
